A study of Homo sapiens with 72 samples.

Results

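Unexposed neighbors of α-particle-hit IMR-90 cells were compared with sham-irradiated cells 0.5 h after exposure, on 8 of the 72 arrays of a time course: the 4 bystander and the 4 control arrays labeled with this time. IMR-90 is an established strain of human lung fibroblasts, used here at early passage. The dishes had a thin Mylar base that lets α-particles through and an inset of thicker Mylar strips that stops them, so the bystander cells were those on the strips of a dish given 50 cGy of helium ions, and the control cells came from dishes given 0 cGy. Irradiated cells were those on the thin Mylar of the exposed dish. Bystander and irradiated cells shared a dish and could touch. All groups had the same cell source, and the replicate number marks 1 of 4 independent experiments on this strain, not 1 of 4 donors. The p-values rest on a residual spread pooled over the 12 control, bystander and irradiated arrays of 0.5 h. Because irradiated and bystander cells shared a dish, this is not the spread of the 4 bystander to control ratios alone. That spread is given as the SD, and it can be wide where the p-value is small. The 0.5 h bystander and control arrays had between 65.7% and 72.2% of spots well above background, and no spot on them was saturated.

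Bystander signaling is the response of cells that were not traversed by a particle to factors released by, or passed through junctions from, cells that were. In fibroblasts it is known to involve cytokines, prostaglandin synthesis and the transcription factor NF-κB, which drives chemokines, interleukins and its own inhibitors. Metallothioneins are small cysteine-rich proteins that bind zinc and copper and are switched on by the metal-sensing factor MTF1. Contractile genes such as smooth muscle actin are driven by serum response factor (SRF) together with its actin-regulated partners and mark the myofibroblast-like state of cultured fibroblasts.

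The windows just before the start of genes are shown first for 2 of the lists with several called members. RefSeq sequences (GRCh38.p14) of the 250 bases before the start were found for 7 of the 15 tested genes in the metallothionein and zinc list. Capitals mark the metal response element core, TGCACNC or TGCGCNC on either strand, in the metallothionein genes MT1X (chr16:56682220-56682469, plus strand) and MT1H (chr16:56669564-56669813, plus strand).
MT1X: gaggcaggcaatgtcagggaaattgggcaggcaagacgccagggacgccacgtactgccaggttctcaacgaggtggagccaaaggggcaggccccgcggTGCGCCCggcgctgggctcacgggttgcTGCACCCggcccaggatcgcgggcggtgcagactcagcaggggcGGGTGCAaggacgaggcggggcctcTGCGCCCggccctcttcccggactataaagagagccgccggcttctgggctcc
MT1H: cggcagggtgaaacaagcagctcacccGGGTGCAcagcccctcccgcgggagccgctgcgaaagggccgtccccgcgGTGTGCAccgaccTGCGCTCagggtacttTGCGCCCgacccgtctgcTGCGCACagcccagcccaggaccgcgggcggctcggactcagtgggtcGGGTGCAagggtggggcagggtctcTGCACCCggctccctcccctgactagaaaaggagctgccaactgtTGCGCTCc
All 5 members called higher that had a window held the core, as did 5 of 7 of all windows of the list with a sequence, against 24.7% of all 27305 windows. MT1B, MT1H, MT1X and MT2A among them are related genes of the same family, so their windows are not separate hits. For the chemokines CXCL8 (chr4:73740319-73740568, plus strand) and CXCL2 (chr4:74099196-74099445, minus strand), the windows with the largest increases of the list by the brightest probe of each gene, capitals mark the NF-κB site on either strand.
CXCL8: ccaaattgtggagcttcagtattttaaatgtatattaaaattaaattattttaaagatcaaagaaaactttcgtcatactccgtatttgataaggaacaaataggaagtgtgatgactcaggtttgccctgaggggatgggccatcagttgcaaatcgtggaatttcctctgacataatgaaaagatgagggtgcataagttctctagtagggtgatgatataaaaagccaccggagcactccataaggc
CXCL2: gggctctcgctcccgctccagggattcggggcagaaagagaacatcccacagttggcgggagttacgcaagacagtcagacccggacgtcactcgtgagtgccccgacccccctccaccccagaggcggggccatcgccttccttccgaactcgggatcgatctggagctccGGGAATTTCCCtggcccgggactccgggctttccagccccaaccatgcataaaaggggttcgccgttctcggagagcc
The NF-κB site was found in 5 of the 6 called chemokine windows, in 5 of 7 of the NF-κB list and in 1 of 6 of the interleukin list, and in 5 of 8, 6 of 18 and 3 of 9 of all windows of these lists with a sequence, against 9.57% of all windows, and the matches in CXCL2 overlap. The window of CXCL8 held no match to the consensus used, and a looser consensus was not searched. Matches describe letters in the window and do not show a factor bound there.

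At 0.5 h, 12 of 15 tested genes of the metallothionein and zinc list were higher in bystander than in control cells, as were 8 of 14 interleukins and other cytokines, 6 of 12 chemokines and 10 of 22 NF-κB subunits and feedback inhibitors. In the actin and SRF list, 8 of 21 tested genes were lower and 0 were higher. Counts over lists are of genes called by limma with the brightest probe of a gene, and a gene not called may still differ; over all genes tested this way 4.33% were called higher and 3.47% lower. Of 25236 probes tested, 1058 were higher in bystander cells (4.19%) and 699 were lower (2.77%), at a limma adjusted p below 0.10, with the experiment as a block and all 12 arrays of 0.5 h in the fit (6.96% in all). Higher probes covered 666 genes and lower probes 538, out of 13010 genes tested. At least 2-fold changes numbered 198 higher and 109 lower, and at least 4-fold changes numbered 34 higher and 3 lower. The direction was the same in all 4 experiments for 1019 of the higher and 679 of the lower probes. Levels did not overlap between the groups for 482 of the called higher and 351 of the called lower probes, where 3.48% and 2.7% of all tested probes had groups apart in those directions.

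The number called rested on the fit and on 2 of the 4 experiments. With the 8 bystander and control arrays alone, 6 probes were higher and 1 was lower. Without experiment 1 the counts were 3 and 0, and without experiment 2 they were 0 and 0, while without experiment 3 they were 589 and 564 and without experiment 4 they were 450 and 177. With no block for the experiment they were 19 and 1. The genes described in most detail below are given with the value of each experiment, and the others by their mean over the 4.

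**Figure D1:**
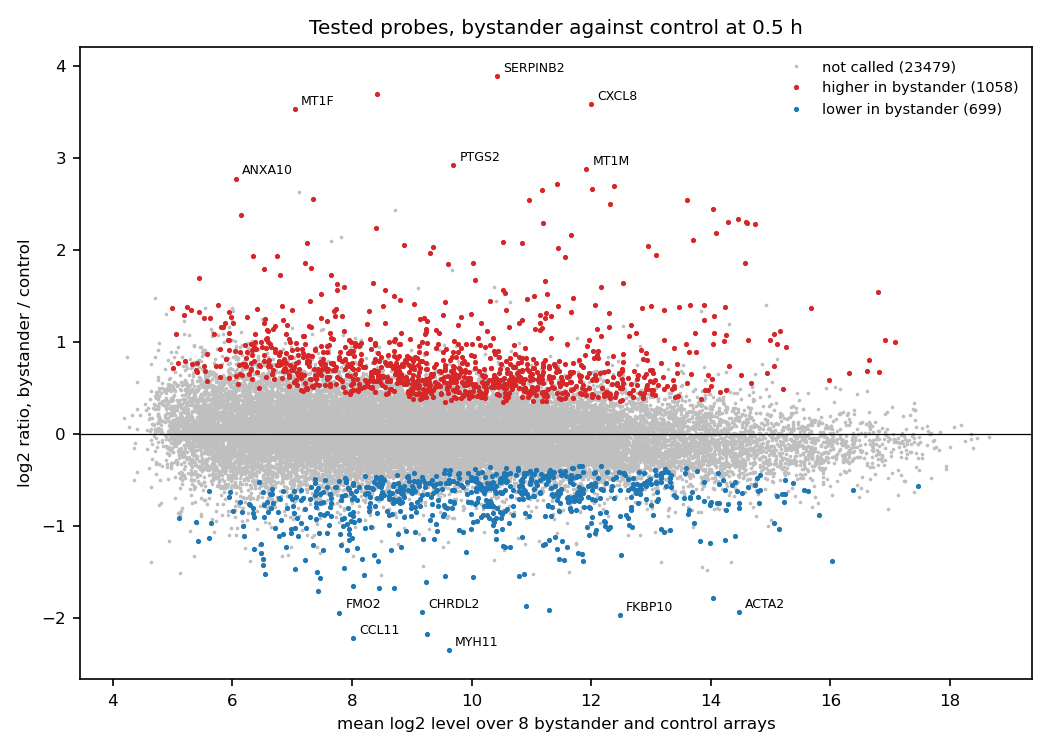
Log2 ratio of bystander to control (vertical) against the mean log2 level over the 8 bystander and control arrays (horizontal) for each tested probe, with 1058 probes called higher in red, 699 called lower in blue and the others in gray. The highest points lie above 3 on the log2 scale and the lowest near -2.35, so the increases reached further than the decreases.

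SERPINB2, an inhibitor of plasminogen activators and the gene with the largest increase among those called, had log2 levels of 7.79, 7.91, 9.59 and 8.60 on the control arrays of experiments 1 to 4 and 13.78, 13.98, 12.68 and 9.05 on the bystander arrays. Its mean log2 ratio was 3.90 (SD 2.68, n = 4), a 14.9-fold increase with an adjusted p of 0.0348. The bystander arrays of experiments 1 and 2 stood highest, and the bystander level of experiment 4 lay below the control level of experiment 3, so the groups overlapped. PTGS2, the inducible cyclooxygenase that makes prostaglandin precursors, had control levels of 7.62, 7.62, 8.02 and 9.67 and bystander levels of 10.99, 10.77, 11.43 and 11.44. The ratio was 2.93 (SD 0.78, n = 4; adjusted p = 0.00396), and every bystander array exceeded every control array. A brighter PTGS2 probe had a ratio of 2.72. The metalloproteinases MMP3 and MMP1, which cleave matrix proteins, had ratios of 2.65 and 2.11 (adjusted p = 0.0269 and 0.0309), with 0.23 and 0.19 in experiment 4.

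Over the list of the plasminogen system, metalloproteinases and prostaglandin synthesis, 8 of 18 tested genes were higher and 1 was lower, where 4.33% of all genes tested were higher and 3.47% lower with 1 probe a gene. The list's median log2 ratio was 0.64, against -0.04 over all genes. It was 0.22 without experiment 3, and 0.65, 0.70 and 0.61 without experiments 1, 2 and 4. MMP10 and the phospholipase PLA2G4A, which releases arachidonic acid, rose by 1.46 and 1.30 on the log2 scale, and PTGES, a prostaglandin E synthase, by 0.84. The metalloproteinase inhibitor TIMP3 was the member that was lower, with a ratio of -0.60 (adjusted p = 0.0598). PLAU, PLAT, PTGS1 and MMP14 had ratios of -0.24, -0.14, -0.27 and -0.80 and were not called.

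Of 12 tested chemokines, 6 were higher, 1 was lower and 5 were not called. CXCL8, the main neutrophil attractant of human cells, had control levels of 9.58, 9.40, 11.53 and 10.31 and bystander levels of 14.60, 14.78, 14.32 and 11.49. Its ratio was 3.59 (SD 1.97, n = 4; adjusted p = 0.022), and the groups overlapped because the bystander level of experiment 4 lay just below the control level of experiment 3. CXCL2 had control levels of 11.34, 11.35, 10.36 and 11.16 and bystander levels of 14.32, 14.66, 12.66 and 12.60, without overlap, and a ratio of 2.51 (SD 0.83, n = 4; adjusted p = 0.00543). CXCL3, CXCL1 and CXCL6 had ratios of 2.30, 1.37 and 0.90. CXCL1, CXCL2 and CXCL3 are close relatives, and how far their probes share signal was not tested. CCL11, which attracts eosinophils, had control levels of 8.52, 8.47, 10.20 and 9.30 and bystander levels of 7.83, 7.84, 5.34 and 6.62, a ratio of -2.21 (SD 2.00, n = 4; adjusted p = 0.0832), without overlap. The monocyte attractants CCL2 and CCL7 had ratios of 0.02 and 0.24 and CXCL12 had -0.71, and these were not called.

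Among interleukins and other cytokines, 8 of 14 tested genes were higher and 0 were lower, with a median ratio of 0.72. IL6, an acute-phase cytokine, had bystander levels of 13.90, 14.08, 13.91 and 9.13 against control levels of 10.74, 10.90, 11.26 and 9.45. The log2 ratios of experiments 1 to 4 were 3.16, 3.18, 2.65 and -0.32, so the mean of 2.17 (SD 1.67, n = 4; adjusted p = 0.0465) rested on 3 of 4 experiments and the groups overlapped. IL1A and IL1B, ligands of the interleukin 1 receptor that feed back on NF-κB, had ratios of 1.74 (SD 0.58) and 1.66 (SD 0.79), positive in 4 of 4 experiments. IL33, an alarmin, had a ratio of 1.80 with 3 of 4 experiments positive, LIF and IL11, ligands of the IL6 family, had 1.41 and 1.02, and TSLP had 0.83. IL24, outside the filter, was not well above background on any control array and was bright on every bystander array, at least 10.1-fold higher by the bound set by the lowest signal well above background. DHRS2 and DYNC1I1 had the same pattern with bounds of 10.4-fold and 3.06-fold.

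Of 22 tested NF-κB subunits and feedback inhibitors, 10 were called higher by limma and 0 lower, with a median of 0.65, and 15 were higher and 2 lower at an unadjusted p below 0.05. Under normexp 2 were called lower, and under quantile scaling 1. TNFAIP3, the ubiquitin-editing inhibitor of NF-κB, had control levels of 9.48, 9.33, 8.75 and 8.83 and bystander levels of 11.22, 11.29, 11.12 and 10.23, a ratio of 1.87 (SD 0.41, n = 4; adjusted p = 0.00396). All 4 experiments moved by a similar amount and the groups did not overlap. BIRC3, an inhibitor of apoptosis that NF-κB induces, and NFKBIZ, a nuclear coregulator, had ratios of 1.93 and 1.40. The subunits REL, RELB and NFKB2 rose by 1.19, 0.89 and 0.72 on the log2 scale, RELA and NFKB1 had ratios of -0.43 and 0.40 that were not called, and NFKBIA rose by 0.75.

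Of 32 tested immediate early transcription factors, 10 were called higher by limma and 0 lower, with a median of 0.69, and 19 were higher and 0 lower at an unadjusted p below 0.05. EGR2, a zinc finger factor, had control levels of 9.74, 9.89, 10.59 and 10.68 and bystander levels of 10.65, 11.02, 12.63 and 11.60, a ratio of 1.25 (SD 0.53, n = 4; adjusted p = 0.0227). It rose in all 4 experiments, most in experiment 3, and the groups overlapped because experiments differed in baseline. EGR3, NR4A3 and ATF3 had ratios of 1.26, 1.20 and 1.14. FOS and FOSB had ratios of 1.34 and 1.44, which did not pass the test (adjusted p = 0.141 and 0.183), and JUN had 0.29. The phosphatases DUSP2 and DUSP5, which switch off MAP kinases, had ratios of 2.08 and 1.28.

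Metallothioneins had the highest median of the lists. MT1X had control levels of 12.55, 12.54, 13.16 and 12.96 and bystander levels of 16.05, 16.04, 15.41 and 13.52, a ratio of 2.45 (SD 1.39, n = 4; adjusted p = 0.0273). Every bystander array exceeded every control array, and the increase was 3.49, 3.50, 2.26 and 0.56 in experiments 1 to 4. MT1F had the largest ratio of the family, 3.53 (SD 1.99; adjusted p = 0.0309), and MT2A the smallest of the called metallothioneins, 1.00. Of 15 tested genes of the metallothionein and zinc list, 12 were higher and 0 were lower, with a median of 2.29. The zinc exporter SLC30A1 and the importer SLC39A14 had ratios of 0.79 and 0.68, while MTF1, MT3 and SLC39A10 were not called. Metallothionein genes are nearly identical in sequence and MT1L is a pseudogene, so how much their probes read each other was not tested.

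HSPA1A, the inducible heat shock protein 70, had control levels of 10.14, 10.21, 11.10 and 11.27 and bystander levels of 14.94, 14.64, 12.52 and 11.28, a ratio of 2.66 (SD 2.33, n = 4; adjusted p = 0.0804). The log2 ratios were 4.80 and 4.43 in experiments 1 and 2 and 1.42 and 0.003 in experiments 3 and 4, and the lowest bystander level was just above the highest control level. Another HSPA1A probe had -0.01 in experiment 4, and how far both probes also read the near copy HSPA1B was not tested. Of 17 tested heat shock genes, 7 were higher and 1, HSPB1, was lower, and HSP90AA1 and HSPH1 had ratios of 1.02 and 1.10. In the NRF2 list, 6 of 17 tested genes were higher and 0 were lower. The higher genes included AKR1B10, an aldo-keto reductase, at 2.25 and SLC7A11, the cystine transporter, at 1.32. Another AKR1B10 probe, at 2.14 and positive in 3 of 4 experiments, did not pass by limma (adjusted p = 0.107). HMOX1 at 1.41 did not pass (adjusted p = 0.166). Among 28 tested p53 target genes, 5 were higher: GDF15 at 1.38, GADD45A at 1.16, RRM2B at 0.97, PMAIP1 at 0.84 and PLK3 at 0.73, and CDKN1A and MDM2 at 0.52 and 0.48 were not called. By limma, 0 of 20 tested genes of DNA damage sensing and repair were called, with 2 higher and 1 lower at an unadjusted p below 0.05 and with 4 called lower without experiment 3, and 0 of 18 ribosomal proteins and 0 of 14 reference genes, with 0 and 2 at that level.

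**Figure D2:**
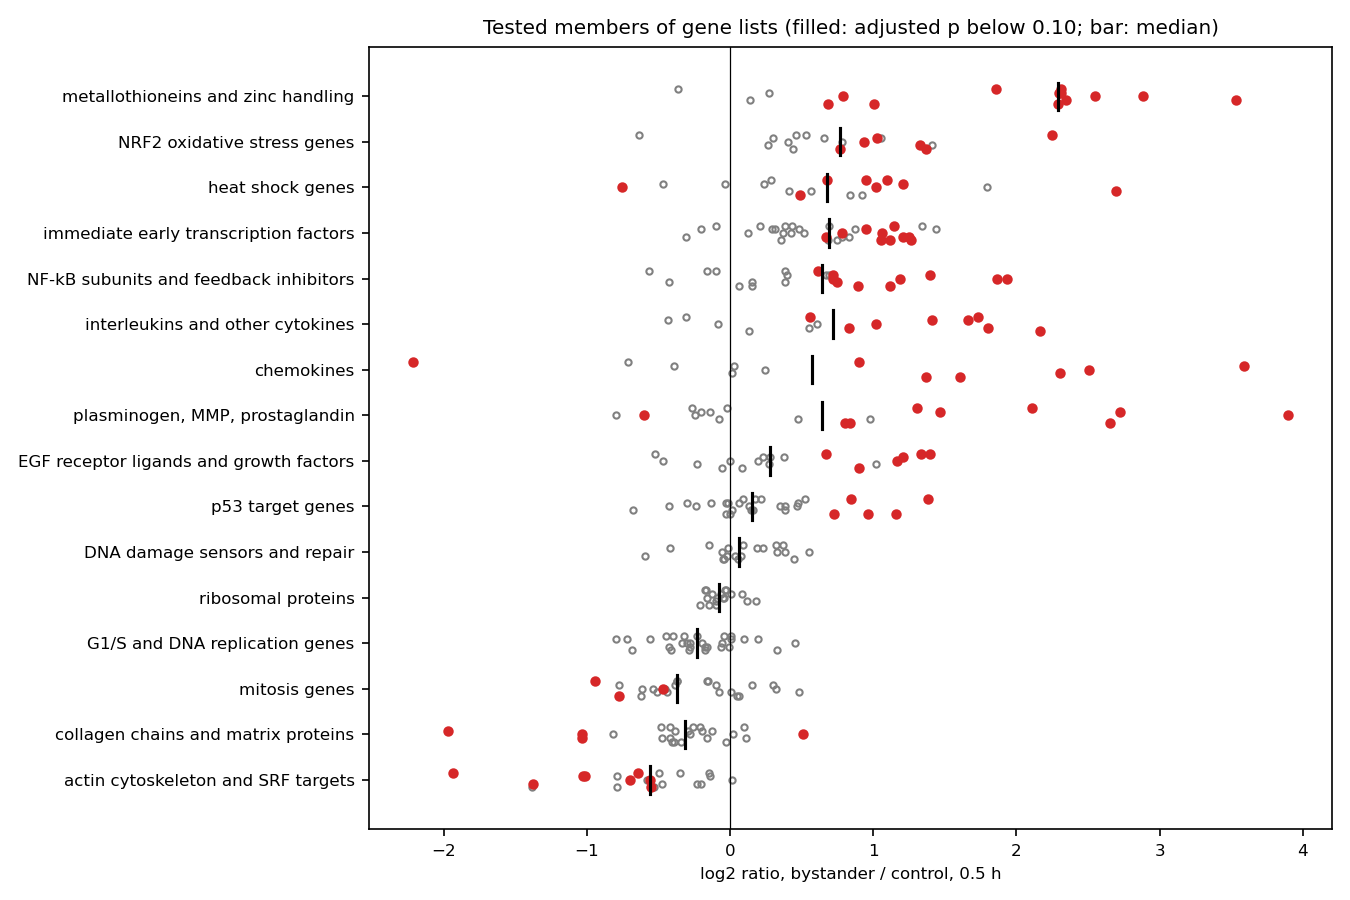
Log2 ratios of bystander to control (horizontal) for the tested genes of each list (rows), 1 probe a gene, with called genes filled and the median as a bar. Metallothioneins sit furthest right, with a median of 2.29, and the actin and SRF list is furthest left, with a median of -0.56.

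ACTA2, smooth muscle α-actin, had control levels of 15.93, 15.86, 15.39 and 14.58 and bystander levels of 14.11, 13.86, 13.93 and 12.10, a ratio of -1.94 (SD 0.42, n = 4; adjusted p = 0.00924). All 4 experiments fell by a similar amount and the groups did not overlap. MYH11, smooth muscle myosin heavy chain, had control levels of 11.44, 10.94, 10.55 and 10.26 and bystander levels of 10.26, 10.28, 7.68 and 5.56, a ratio of -2.35 (SD 1.83, n = 4; adjusted p = 0.0661). Its fall was largest in experiments 3 and 4, and within the slide that held bystander 2 and control 4 the ratio was 0.02. Of 21 tested genes of the actin and SRF list, 8 were lower and 0 were higher: ACTA2, ACTG2 at -1.37, CNN1 at -1.03, MYL9 at -1.01, CNN2 at -0.70, TGFB1I1 at -0.64, TPM2 at -0.56 and ACTN1 at -0.55. TAGLN at -1.39 did not pass, and cytoplasmic ACTB and ACTG1 had ratios of -0.14 and 0.02.

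FKBP10, a chaperone of collagen folding, had control levels of 12.38, 13.17, 14.11 and 14.19 and bystander levels of 11.23, 11.31, 10.04 and 13.39, a ratio of -1.97 (SD 1.46, n = 4; adjusted p = 0.0567), with overlapping groups. Of 24 tested collagen and matrix genes, 3 were lower, FKBP10 with the fibrillar collagen chain COL5A1 at -1.04 and tenascin TNC at -1.03, and 1, THBS2, was higher at 0.51. The flavin monooxygenase FMO2 had a ratio of -1.94, and PHGDH, which opens serine synthesis, -1.36. TXNIP, an inhibitor of thioredoxin, had -1.06. Of 24 tested mitosis genes, 3 were lower, KIF20A at -0.94, PLK1 at -0.77 and CCNB1 at -0.47, and 0 of 29 G1/S genes were called by limma, with 3 lower at an unadjusted p below 0.05. Without experiment 3, 11 of 24 mitosis genes and 15 of 29 G1/S genes were lower, with medians of -0.65 and -0.57 against -0.37 and -0.23. Without experiment 1 or without experiment 2, 0 genes of either list were called. The mitosis medians were then -0.12 and 0.03, and the G1/S medians -0.11 and -0.10. In the reverse bound, HOXB8 was bright on all control arrays and not well above background on any bystander array, at least 3.84-fold lower.

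The counts over the other lists stand beside the 4.33% of all genes called higher and 3.47% called lower, and nothing is read from 1 called member in a list of these sizes. Among 18 tested EGF receptor ligands and growth factors, 6 were higher and 0 lower, with the activin subunit INHBA at 1.40 and FGF2 at 1.33, and among 15 tested adhesion molecules and other NF-κB targets 5 were higher, with G0S2 at 1.95 and mitochondrial superoxide dismutase SOD2 at 1.29, and 1, the pentraxin PTX3, was lower at -0.89. Of 22 genes of the unfolded protein and amino acid response, 3 were higher, led by the phosphatase subunit PPP1R15A at 1.26, and 2 were lower, PHGDH and PSAT1, both enzymes of serine synthesis. Polyamine metabolism had 3 of 10 higher, led by the acetyltransferase SAT1 at 1.08, and the circadian clock 3 of 15, led by the repressor BHLHE41 at 1.25. Glucose-sensing and quiescence genes had 3 of 19 higher, among them the kinase PDK4 at 1.00, and 1 lower, TXNIP. Of 15 genes of mRNA decay and feedback 2 were higher and 1, the cytokine signaling inhibitor SOCS1, was lower at -1.12, and of 19 TGF-β and BMP targets 1, SKIL, was higher at 0.85 and 2, ACTA2 and SMAD6, were lower. MAP kinase phosphatases had 2 of 14 higher, cytokine receptors 2 of 15, the cholesterol pathway 2 of 18, hypoxia genes 1 of 19 and nuclear RNAs 1 of 8, each with 0 called lower by limma and with 1, 4, 0, 1 and 1 lower at an unadjusted p below 0.05. Histone genes had 1 of 15 higher and 1 lower, Notch, Hippo and Wnt targets 1 of 15 and 1, and interferon-stimulated genes 0 of 19 and 1, MX2 at -0.71, which turned to 0.423 under normexp, where the list's median went from -0.15 to 0.12. In the list of KDM5B and deacetylases 0 of 15 were called by limma, with 2 higher and 1 lower at an unadjusted p below 0.05.

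**Figure D3:**
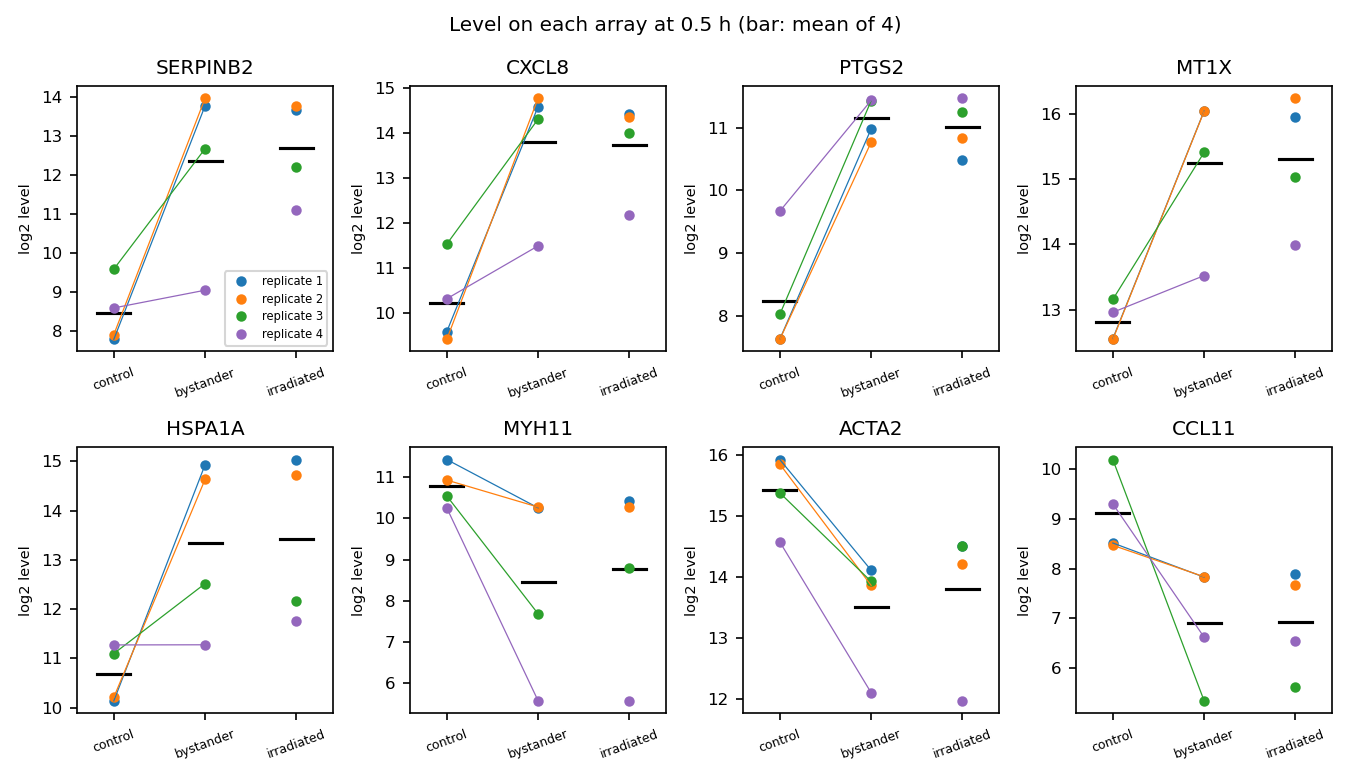
Scaled log2 level on each 0.5 h array (vertical, axes differ by gene) of 8 genes in control, bystander and irradiated cells, with lines joining control and bystander of 1 experiment and a bar at the mean of 4. SERPINB2 rises from 7.79 to 13.78 in experiment 1 and from 8.60 to 9.05 in experiment 4, while ACTA2 falls in all 4 experiments.

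Other genes among the 20 largest changes in each direction came from several families. MT1M, MT1G, MT1E and MT1B rose by 2.88, 2.55, 2.55 and 2.31 on the log2 scale, the neutrophil attractant CXCL5 by 2.56 (a brighter probe by 1.61), the annexin ANXA10 by 2.78 and the survival gene BCL2A1 by 2.08 (adjusted p = 0.0325). Another BCL2A1 probe had a ratio of -0.19 and was not called. Among the falls, GDF10, a member of the TGF-β family, had a ratio of -1.71 (SD 0.63; adjusted p = 0.0149), the BMP antagonist CHRDL2 -1.93, the metalloproteinase ADAMTS8 -1.92, SHISA3 -1.78, NXN -1.67 and the complement component C7 -1.65. IRAG1, LIMS2, the potassium channel KCNH2, TMEM130, the actin regulator CDC42EP3 and the adrenergic receptor ADRA1B lay between -1.61 and -1.50. The kinase AKT2 had -1.54 with a second probe that did not pass (adjusted p = 0.126), and FAM149A, at -1.52, turned to 0.295 under another background correction.

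The experiments did not contribute alike. Among the 20 genes with the largest increases, experiment 4 had the smallest ratio in all 20, and in 20 the mean of experiments 1 and 2 exceeded that of 3 and 4. Among the 20 with the largest falls, the mean fall of experiments 3 and 4 was the larger in 20. Over all called probes the split differed: 450 of 1058 higher probes had the larger mean in experiments 1 and 2, and 528 of 699 lower probes fell more in experiments 3 and 4. As a description across 25236 probes that share arrays and normalization, ratios correlated at 0.578 between experiments 1 and 2 and at 0.468 between 3 and 4, against -8.45e-05 to 0.2 for the other pairs. Control arrays 1 and 2 differed with an SD of 0.255, the smallest of the control pairs, and 19.8% of probes in experiment 3 differed at least 2-fold between bystander and control, against 2.11% in experiment 1.

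**Figure D4:**
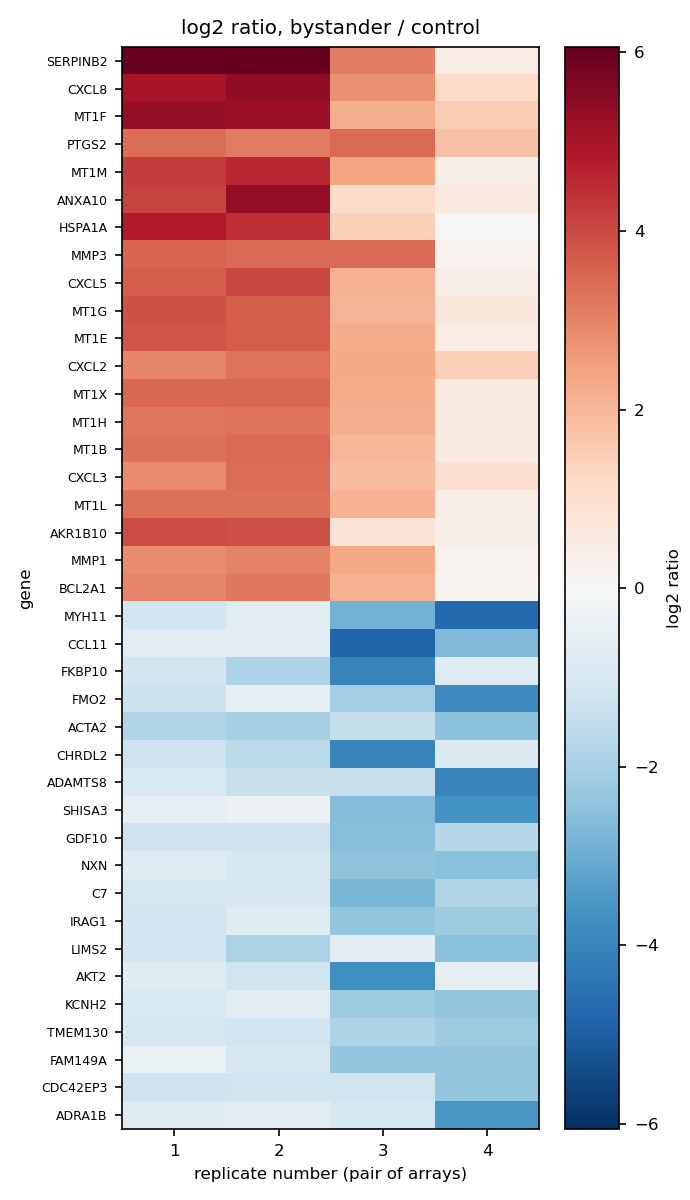
Log2 ratio of bystander to control (color) in each of the 4 experiments (columns) for the 20 genes with the largest increases and 19 of the 20 with the largest falls (rows). Increases are on average deeper in columns 1 and 2 than in 3 and 4 and palest in column 4, and falls are on average deeper in columns 3 and 4.

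Slides and cell type markers were examined beside these results. Each of the 3 slides of 0.5 h held both groups, but the bystander and control arrays of experiments 2 and 4 lay on different slides. Slide is thus mixed into the ratios of those experiments. Slide 1 held bystander 1 with controls 1 and 2, slide 2 bystander 2 with control 4, and slide 3 bystanders 3 and 4 with control 3. Within all 3, 935 of the called higher and 611 of the called lower probes had the same direction. These probes were called on the same arrays, so the counts are a description. The log2 ratios within slides 1 to 3 were 5.93, 5.38 and 1.27 for SERPINB2, 5.10, 4.47 and 1.37 for CXCL8, and -1.78, -0.71 and -2.37 for ACTA2. With the slide as an added block, 113 probes were higher and 34 lower. All 13 fibroblast markers were well above background on all 8 arrays, and THY1 and PDGFRB, both fibroblast surface proteins, were lower at -1.10 and -0.75. The summed level of the fibroblast list, in which COL1A2 was brightest, ran from 1086000 to 1547000 on control arrays and from 764600 to 1226000 on bystander arrays, and was lower in bystander cells in 4 of 4 experiments. CDH1 and KRT5 of the epithelial list, PECAM1 and TIE1 of the endothelial list and PTPRC and LYZ of the leukocyte list were well above background on none of the 8 arrays. The epithelial list, brightest in SFTPC, summed to 531.4 to 920.5 on control and 412.1 to 660.5 on bystander arrays, and the endothelial list, brightest in TEK, to 6661 to 8217 and 7365 to 9361, lower in 3 of 4 and higher in 3 of 4 experiments. The leukocyte list summed to 620.9 to 756.5 on control and 819.1 to 1009 on bystander arrays, higher in 4 of 4 experiments, with CD68, which fibroblasts also express, brightest and higher at 0.55 (adjusted p = 0.043), with no tested member of the epithelial or endothelial list called; the part of such cells in the results was not tested. In bulk RNA, fewer cells of a type and less RNA per cell cannot be told apart.

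Irradiated cells of the same dishes were compared with bystander cells directly. No probe was called at an adjusted p below 0.10 (0%), and 532 probes (2.11%) had an unadjusted p below 0.05, with limma on the same fit. That number was 103 with no scaling, 157 with no block, 211 without experiment 4 and 891 without experiment 3. On the 8 irradiated and bystander arrays alone it was 1380. The 2.11% of the main fit lay below the 0.05 level itself, and the smallest adjusted p by limma was 0.999985. P-values of that fit thus ran high for this comparison, and why was not tested. Irradiated SERPINB2 levels were 13.67, 13.78, 12.22 and 11.12, a difference of 0.32 from bystander (SE 0.77). The median SE of the difference over all probes was 0.173, and a difference that misses the threshold does not show that the cells were alike. Against the shared control arrays, the median log2 ratio of the called higher probes was 0.69 in bystander and 0.67 in irradiated cells. For the called lower probes it was -0.65 and -0.61. Both comparisons use the same control arrays. The probes were also picked by the bystander comparison, in a fit that holds the irradiated arrays, so these medians do not test how alike the cells were.

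The bystander to control ratio at 0.5 h was also set against that at 1 h. No probe was called (0%), and 526 (2.08%) had an unadjusted p below 0.05, with limma on 24 arrays. Leaving out 1 replicate number moved the second count to 139, 865, 1444 and 1318 without 1, 2, 3 and 4. With no block it was 114, and under normexp 3167. The 2.08% of the main fit also lay below the 0.05 level itself, with a smallest adjusted p by limma of 0.999979. CXCL8 had a ratio of 3.59 at 0.5 h and 0.96 (SD 1.33) at 1 h, and MT1X had 2.45 and 0.94 (SD 0.84). These differences of 2.63 (SE 0.79) and 1.51 (SE 0.55) did not pass the adjusted threshold. Without replicate 4 of both times, 90 probes were called. The deposited log2 values exchange replicates 3 and 4 of 0.5 h, so the same number at both times may not be the same experiment, and with that exchange 0 probes were called without replicate 3 or without replicate 4, with 545 and 1182 at an unadjusted p below 0.05.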

How the data were processed

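Cy3-labeled RNA of each sample was hybridized to 1-color Agilent arrays. Per the file headers, Feature Extraction 9.1.3.1 made the deposited intensity for each spot, after background subtraction and spatial detrending; the authors also deposited log2 values of the same signal, used as an alternative. Those log2 values number experiments 3 and 4 of 0.5 h the other way round in all 3 groups, which leaves the pairs unchanged. Here each array was scaled to a common 75th percentile, floored at 1, put on the log2 scale and averaged over the spots of a probe. Control spots were left out and non-uniform spots were missing. A probe was kept where at most 10% of its 72 array values were below the detection flag or non-uniform, as the study did, leaving 25236 of 41000. Symbols came from RefSeq by accession for 25398 probes, by symbol for 2510 and by synonym for 789, and otherwise from the files. limma 3.58.1 in R 4.3.3 was fitted to 12 arrays (3 groups, experiment as a block, intensity trend, 6 residual degrees of freedom) with Benjamini-Hochberg adjustment.

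Arrays were grouped by their labels. Per the methods, each experiment ran its 3 groups in parallel, and arrays of the same number deviated together in 12 of 12 pairs (lowest r 0.111, median 0.521), against 11 of 36 pairs of different numbers above 0.1 (highest 0.327, median -0.15). Bystander array 3 was no closer to control 3 (0.111) than to controls 1 and 2 (0.119 and 0.214). Depth does not apply to arrays, and 4 per group limit precision. Named genes were the 20 with the largest change in each direction among those called and alike in 4 of 4 experiments, and up to 4 called genes a direction of each of 37 lists (brightest probe of a gene); uncalled or further members were named after their values were seen, and 1 gene is not reported here. Members and lists were chosen with earlier results of these data known. Alternatives covered scaling, background, filter, block, slide, threshold and left-out experiments; counts over lists were added after seeing the data.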

Additional observations from a re-analysis of the deposited data

Results flagged for a closer look

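For 121 of the gene probes named, the 4 arrays of each group were checked for an array whose distance to the nearest of the others over the group's range exceeded Dixon's 95% critical value, and 26 of 242 groups (10.7%) held such an array, where chance gives about 1 in 20. Experiment 4 held 17 of these, experiment 3 held 8, experiment 2 held 1 and experiment 1 held 0. On the bystander array of experiment 4 the log2 levels were CXCL8 11.49, MMP3 9.329, ACTA2 12.1, TNFAIP3 10.23, IL6 9.131, IL13RA2 9.461, INHBA 12.57, SLC7A11 10.45, ACTG2 13.79, CNN1 10.83. On the control array of experiment 4 they were CXCL3 10.68, SOCS1 11.45, HSPH1 13.71, DNAJB9 12.61, BHLHE41 6.451, THBS2 14, CD68 9.127. On the bystander array of experiment 3 they were CHRDL2 6.364, EGR3 12.22, and on the control array of experiment 3 they were TRIB1 13.14, REL 5.956, BMP2 7.195, RRM2B 7.2, CHORDC1 9.074, TNC 16.32. The control array of experiment 2 stood apart for HMGCS1 10.81. What set these arrays apart was not tested.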

How the results depend on the processing

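Numbers of probes called depended on the fit, and many of the settings could hardly change a direction. Counts higher and lower were 1058 and 699, and became 91 and 161 with no scaling, 87 and 22 with scaling to the added transcripts, 398 and 206 with no filter on dim probes, 346 and 165 at an adjusted p below 0.05, 113 and 34 with the slide added to the replicate block, 19 and 1 with no replicate block, and 6 and 1 on the 8 bystander and control arrays alone. Leaving out 1 experiment gave 0 to 589 higher and 0 to 564 lower, with the lowest counts without experiments 1 and 2. The ratio of 0.5 h against 1 h had 0 to 90 probes called, 90 without replicate 4 of both times; with replicates 3 and 4 of 0.5 h exchanged, as the deposited log2 values have them, leaving out any replicate gave 0, in a fit added after seeing the data. Quantile scaling, median centring, normexp, another filter, no trend and the deposited log2 values kept both counts within 1.5 times. Similar counts did not mean the same probes. Of the 1757 probes called in the main fit, 1096 were also called under normexp and 1624 under quantile scaling. Under normexp, 20 of the 20 largest increases still passed, but 11 of the 20 largest falls did. The median log2 ratio of these 20 falls was -0.9964 under normexp, against -1.658 with no trend. The share of called probes that were higher was 60.2%, against 36.1% with no scaling and 79.8% with added transcripts, where the median of all probes was -0.148 and 0.116; under normexp it was 0.203. Under normexp, FAM149A and MX2 turned to 0.295 and 0.423, and the cause was not tested. No other of the 122 called gene probes named changed direction under the settings run, and uncalled genes were not followed. Little can be read from this. Changes of block, filter, trend or groups in the fit leave the ratio of a probe without missing arrays as it was. The 20 largest changes in each direction were picked as alike in 4 of 4 experiments, so leaving out 1 could not turn them. Of 122 named gene probes, 3, 0, 89 and 82 still passed without experiments 1, 2, 3 and 4, 8 without the block, 5 on 8 arrays and 43 with the slide block. In counts added after seeing the data, the metallothionein list had 0 called without experiment 1, without experiment 2, without the block or on 8 arrays, and 12 without experiment 3 or 4, with medians from 1.94 to 2.89. Without experiment 3, genes called lower went from 0 to 15 in the G1/S list, from 3 to 11 in the mitosis list and from 0 to 4 in the DNA repair list. Without experiment 1 or without experiment 2, these lists had 0 called. The mitosis median went from -0.37 to -0.12 without experiment 1 and to 0.03 without experiment 2. With 4 arrays a group, dim probes have only bounds.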

Other observations

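Outside the filter, CEACAM4, SHANK1, ACTL6B, PCDHA8 and SLC7A10 were also well above background on all 4 control arrays and on no bystander array, with bounds of at least 1.54-fold, 1.43-fold, 1.40-fold, 1.40-fold and 1.36-fold lower. None of these was tested.

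Other motifs were searched on both strands of the same windows. The heat shock element was in 1 of 8 called and 3 of 15 of all heat shock windows with a sequence, against 0.439% of all windows, the antioxidant response element core (TGACNNNGC) in 3 of 4 called and 3 of 11 of all windows of the NRF2 list, against 11% of all windows, and the AP-1 site (TGANTCA) in 3 of 7 called and 4 of 12 of all windows of the plasminogen and metalloproteinase list, against 6.6%. The CArG box was in 2 of 7 called and 8 of 18 of all windows of the actin list, so in a smaller share of the called ones, and in 0 of 6 called and 2 of 22 of all windows of the immediate early list, against 1.14%.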
